A study of Mus musculus with 6 samples.

Results

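The solute carrier family 16 (Slc16), whose proteins are called monocarboxylate transporters (MCTs), was examined in the primary somatosensory (S1) cortex of whisker-stimulated mice. The members described here were taken as 9 named rows of the table, Slc16a1, Slc16a3, Slc16a6, Slc16a7, Slc16a8, Slc16a9, Slc16a10, Slc16a11 and Slc16a14, of 14824 genes listed in all. A further 4 Slc16 genes of the table were kept as a list for comparison. All samples were S1 cortex of C57B6 mice at postnatal day 21, all labelled as wild type, so no group carried a deletion or transgene. The whiskers of the WS group (3 libraries) were brushed daily for about a week and the tissue was collected 90 minutes after the last stimulation, while the NS group (3 libraries) was not stimulated. The whole piece of cortex was sequenced, so all cell types were pooled, and a change in the number of cells of a type and a change in RNA per cell cannot be told apart. The sequencing is described as of 3 male mice, and the NS tissue of the whisker model is described as the cortex of the unstimulated side, so same-numbered NS and WS libraries may come from the same animal, although the labels do not say which libraries share one.

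MCTs carry small acids and related molecules across cell membranes. Slc16a1 (MCT1), Slc16a7 (MCT2), Slc16a8 (MCT3) and Slc16a3 (MCT4) move lactate, pyruvate and ketone bodies together with a proton, in whichever direction the gradient points. In the brain MCT1 is known from the endothelium and glia, MCT2 from neurons, MCT4 from astrocytes, and MCT3 mainly from the retinal pigment epithelium and choroid plexus, so that lactate can pass between vessels, glia and neurons. The lactate carriers need an immunoglobulin-type partner, basigin (Bsg), embigin (Emb) or neuroplastin (Nptn), to reach the plasma membrane. The remaining members carry other substrates or have none that is firmly established. Slc16a10 transports aromatic amino acids and thyroid hormone, Slc16a9 transports carnitine, Slc16a6 has been linked to ketone body export, and Slc16a14 is still an orphan carrier.

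The 300 bases around the annotated start (250 before and 50 after) were read from RefSeq on GRCm38.p6, the same assembly as the mm10 build of the libraries, for 7 of the 9 members. Slc16a6 and Slc16a7 were not matched. The promoters of Slc16a1, Slc16a3 and Slc16a8 are shown because these 3 lactate carriers gave 3 different results in the counts, a called rise, no call with overlapping groups, and a large fold change at few counts. Capitals mark the matches, on either strand, to 7 motifs searched, the hypoxia response core ACGTG, the cAMP response core TGACG and the complete site TGACGTCA, the AP-1 site TGANTCA, the E-box CACGTG, the Sp1 box GGGCGG and the TATA box TATAAA.
Slc16a1, chr3:104638414-104638713, plus strand: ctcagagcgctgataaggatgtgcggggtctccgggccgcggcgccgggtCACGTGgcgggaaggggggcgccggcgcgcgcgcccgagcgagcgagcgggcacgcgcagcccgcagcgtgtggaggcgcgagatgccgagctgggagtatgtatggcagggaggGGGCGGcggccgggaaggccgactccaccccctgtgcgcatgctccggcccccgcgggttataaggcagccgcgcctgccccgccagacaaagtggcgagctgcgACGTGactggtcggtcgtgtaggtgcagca
Slc16a3, chr11:120948817-120949116, plus strand: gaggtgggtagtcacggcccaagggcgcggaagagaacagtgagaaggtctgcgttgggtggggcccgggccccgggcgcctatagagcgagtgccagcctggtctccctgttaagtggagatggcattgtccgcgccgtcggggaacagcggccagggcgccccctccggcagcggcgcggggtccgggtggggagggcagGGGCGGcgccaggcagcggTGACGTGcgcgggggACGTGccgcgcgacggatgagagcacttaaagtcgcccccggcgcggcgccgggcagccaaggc
Slc16a8, chr15:79254699-79254998, minus strand: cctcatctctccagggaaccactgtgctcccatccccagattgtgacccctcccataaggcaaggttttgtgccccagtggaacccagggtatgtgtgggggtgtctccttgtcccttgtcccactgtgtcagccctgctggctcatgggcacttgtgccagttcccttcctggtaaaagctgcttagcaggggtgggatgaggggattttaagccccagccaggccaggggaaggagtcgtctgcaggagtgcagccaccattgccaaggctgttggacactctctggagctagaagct
The Slc16a1 promoter held 1 E-box starting 200 bases before the start. The hypoxia response core lies inside that palindrome on both strands, and a further copy started 20 bases after the start. The Slc16a3 promoter held the hypoxia response core at 27 and 14 bases before the start, the first of which overlaps a cAMP response core at 29 bases. Both promoters held 1 Sp1 box, at 85 bases before the start in Slc16a1 and at 48 bases in Slc16a3. None of the 7 motifs was found in the Slc16a8 window. Among the 7 members searched, the hypoxia response core was present in 2 and the Sp1 box in 4, while 19.7% and 35.9% of 27025 mouse promoters of the same length held them. The E-box was present in 7.24% of all promoters and in 1 of the 7 members. The 3 promoters also differ in base composition, with 42 CpG dinucleotides in Slc16a1, 36 in Slc16a3 and 1 in Slc16a8, against a median of 7 over all promoters. The hypoxia response core, the E-box and the Sp1 box each contain a CpG. The shares over all promoters were matched for length and not for base composition. These matches are letters in a window and give no evidence of binding.

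Counts were computed back for each library from the deposited mean, SD and z-scores, and were put on a common library size (CPM) with edgeR's TMM factors. The total counts over the listed genes lay between 15660395 and 17276168 per library, and 13747 genes passed the filter on low counts, among them 9 of 9 members. A gene was called where edgeR's quasi-likelihood F test gave a Benjamini-Hochberg adjusted p under 0.05, taken over all tested genes, together with a log2 fold change beyond 1 in size. WS replicates 1 and 3 stood furthest apart among all pairs of libraries by a chi-square over genes, at 20.3 per degree of freedom, against 4.29 for the closest pair. The labelled tissue was checked against 10 neuron markers, of which 10 were present, with a summed level of 12999 to 13340 CPM in NS and 12610 to 13473 CPM in WS.

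To ask which members of the family responded to whisker stimulation, the 3 WS libraries were compared with the 3 NS libraries member by member. Slc16a1 and Slc16a7 were called higher in WS, which is 2 of 9 members. Over all tested genes, 4 of 13747 (0.0291%) were called higher, these 2 members among them. The members were chosen with earlier results of these data known, so this contrast is no test of the family. No member was called lower, as was the case for 0% of all tested genes. By DESeq2, 0 members were called lower as well, and 0 had an unadjusted p under 0.05 in that direction. At an unadjusted p under 0.05, 3 members were higher, the third being Slc16a8, against a background of 0.866%. The log2 fold change was above 0 in 9 of 9 members, with a median of 0.15, while the median over all tested genes was 0.0074 and 53.0% of them were above 0. The 3 WS values lay above the 3 NS values in 4 members (Slc16a1, Slc16a7, Slc16a8 and Slc16a9) against 3.11% of all genes, and below them in 0 members against 3.16%. The groups overlapped in the other 5 members.

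**Figure D1:**
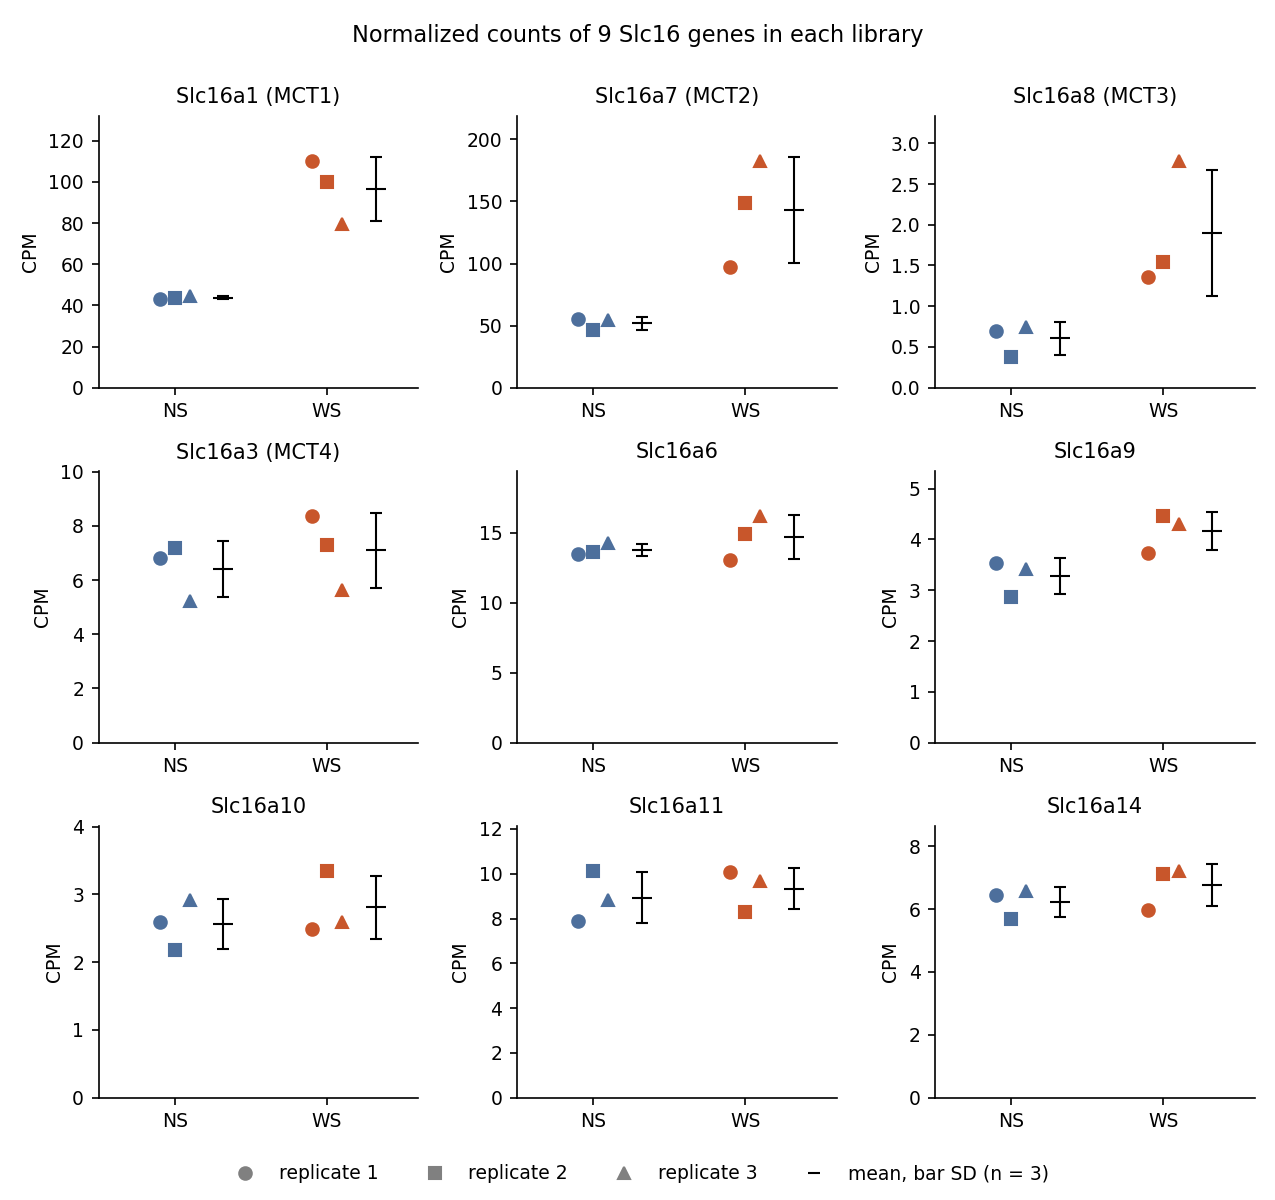
Normalized counts (CPM, linear axis from 0) of the 9 Slc16 members in each NS and WS library, with the replicate number given by the marker and the mean ± SD (n = 3) beside the points. The WS points of Slc16a1 (79.6 to 110.1 CPM) and Slc16a7 (97.5 to 182.3 CPM) lie above all NS points of the same gene, and those of Slc16a3, Slc16a6, Slc16a10, Slc16a11 and Slc16a14 overlap with NS.

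Slc16a1 (chr3:104638668-104658462, plus strand, in GENCODE M21 on GRCm38) encodes MCT1, the most widely expressed lactate carrier. Its level was 43.2, 43.4 and 44.5 CPM in NS replicates 1, 2 and 3 and 110.1, 100.1 and 79.6 CPM in WS replicates 1, 2 and 3. The NS libraries were nearly identical, with a coefficient of variation of 1.64%, and the lowest WS library was still far above them. The log2 fold change was 1.14 with an SE of 0.11 (adjusted p = 0.00356, edgeR), or 2.21-fold with a 95% confidence interval of 1.87 to 2.62. With 685 to 1858 counts per library, counting error was 2.96% of the mean count, which is more than the spread seen in NS. The call was lost without NS replicate 2 (adjusted p = 0.0851) and without NS replicate 3 (adjusted p = 0.0636), although the log2 fold change stayed at 1.14 and 1.16. Without either WS library that stood apart the call was kept, at 1.04 without WS replicate 1 and 1.26 without WS replicate 3.

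Slc16a7 (chr10:125219270-125389465, minus strand) encodes MCT2, the carrier with the highest affinity for lactate in the family. Its level was 55.2, 46.1 and 54.4 CPM in the NS replicates and 97.5, 148.6 and 182.3 CPM in the WS replicates. The groups did not overlap, but the WS libraries were spread over a wide range, with a coefficient of variation of 29.9% against 9.74% in NS. The log2 fold change was 1.46 with an SE of 0.18 (adjusted p = 0.0142, edgeR), or 2.75-fold with an interval of 2.09 to 3.62. The call depended on each NS library, with an adjusted p of 0.0703 without NS replicate 1, 0.314 without NS replicate 2 and 0.135 without NS replicate 3, at log2 fold changes of 1.38 to 1.51. It was kept at 1.67 without WS replicate 1 and at 1.25 without WS replicate 3.

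Slc16a8 (chr15:79251014-79254761, minus strand) encodes MCT3 and had the fewest counts of all members. It had 11, 6 and 12 counts in the NS replicates and 23, 25 and 44 counts in the WS replicates, which correspond to 0.69, 0.37 and 0.75 CPM and to 1.36, 1.55 and 2.78 CPM. All WS values were above all NS values, but at a mean of 20.2 counts the counting error alone was 22.3%. At 1.63 (SE 0.38), its log2 fold change was the largest of the 9 members, with an interval of 1.73 to 5.54 on the fold scale. It had an unadjusted p of 0.00121 and an adjusted p of 0.9998 (edgeR), so it was not called. When same-numbered libraries were blocked, the log2 fold change was 1.62 and the adjusted p was 0.0442 (edgeR), which passes the threshold. In that fit 3 of 9 members were called, against 6 of 13747 tested genes (0.0436%), these 3 members among them. The log2 fold change was 1.26 without WS replicate 3, the library with the most Slc16a8 counts, and 1.82 without WS replicate 1.

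Slc16a3 (chr11:120948480-120960868, plus strand) encodes MCT4, the low-affinity carrier of glycolytic cells. Its level was 6.81, 7.18 and 5.22 CPM in NS and 8.35, 7.30 and 5.62 CPM in WS. The third replicate was the lowest of both groups, and the groups overlapped. It changed by 0.15 on the log2 scale (SE 0.18, adjusted p = 0.9998, edgeR), with an interval of 0.84 to 1.47 on the fold scale.

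Beyond the lactate carriers, 0 of 5 members were called in either direction by edgeR, 0 had an unadjusted p under 0.05, and DESeq2 called 0. Over all tested genes 0.0291% were called higher and 0.866% were higher at an unadjusted p under 0.05, so counts of 0 among 5 genes do not set these members apart. Slc16a9 (chr10:70245100-70285968, plus strand), the carnitine carrier, came closest. It had 3.53, 2.87 and 3.42 CPM in NS and 3.73, 4.45 and 4.29 CPM in WS, so that the groups did not overlap, but the gap between WS replicate 1 and NS replicate 1 was small beside the spread within the groups. Its log2 fold change was 0.34 (SE 0.18, unadjusted p = 0.0865, adjusted p = 0.9998, edgeR). Of its exon bases, 12.7% are shared with the antisense gene Gm7097 and 10.8% with Gm9877, also on the opposite strand, and the sources used here do not say whether strand was used in counting.

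Slc16a6 (chr11:109450855-109473598, minus strand) was the steadiest of these 5 in NS. Its coefficient of variation there, 3.12%, was below its counting error of 6.60% of the mean count. Its level was 13.5, 13.6 and 14.3 CPM in NS and 13.0, 14.9 and 16.2 CPM in WS. The WS libraries lay on both sides of the NS range, and the log2 fold change was 0.09 (SE 0.11). It shares 1052 exon bases, 21.5% of its length, with Amz2 on the opposite strand, which is itself an abundant gene (50.4 ± 1.25 CPM in NS and 47.5 ± 3.72 CPM in WS, SD, n = 3), and without strand the reads of the shared bases cannot be told apart.

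Slc16a10 (chr10:40033532-40142258, minus strand), the carrier of aromatic amino acids, had 2.58, 2.18 and 2.92 CPM in NS and 2.49, 3.34 and 2.59 CPM in WS. Only WS replicate 2 was outside the NS range, and the log2 fold change of 0.13 (SE 0.22) turned to -0.022 without that library. Slc16a11 (chr11:70212752-70216417, plus strand), a carrier linked to lipid metabolism in the liver, had 7.88, 10.1 and 8.82 CPM in NS and 10.1, 8.29 and 9.66 CPM in WS. All WS values were inside the NS range, and the log2 fold change was 0.06 (SE 0.14). Slc16a14 (chr1:84905898-84935134, minus strand) had 6.43, 5.68 and 6.58 CPM in NS and 5.98, 7.11 and 7.20 CPM in WS. Slc16a14 had a log2 fold change of 0.12 (SE 0.15), with overlapping groups.

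For the 6 members other than Slc16a1, Slc16a7 and Slc16a8, counting error and the spread between the 3 libraries of a group both limit how small a change could be seen. The fold changes lay between 1.05 and 1.27, and the highest upper bound of a 95% confidence interval was 1.68, for Slc16a9. That bound is below the lower bounds of Slc16a1 (1.87) and Slc16a7 (2.09). The lowest lower bound was 0.783, for Slc16a10, so a small change in either direction remains possible in these members.

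**Figure D2:**
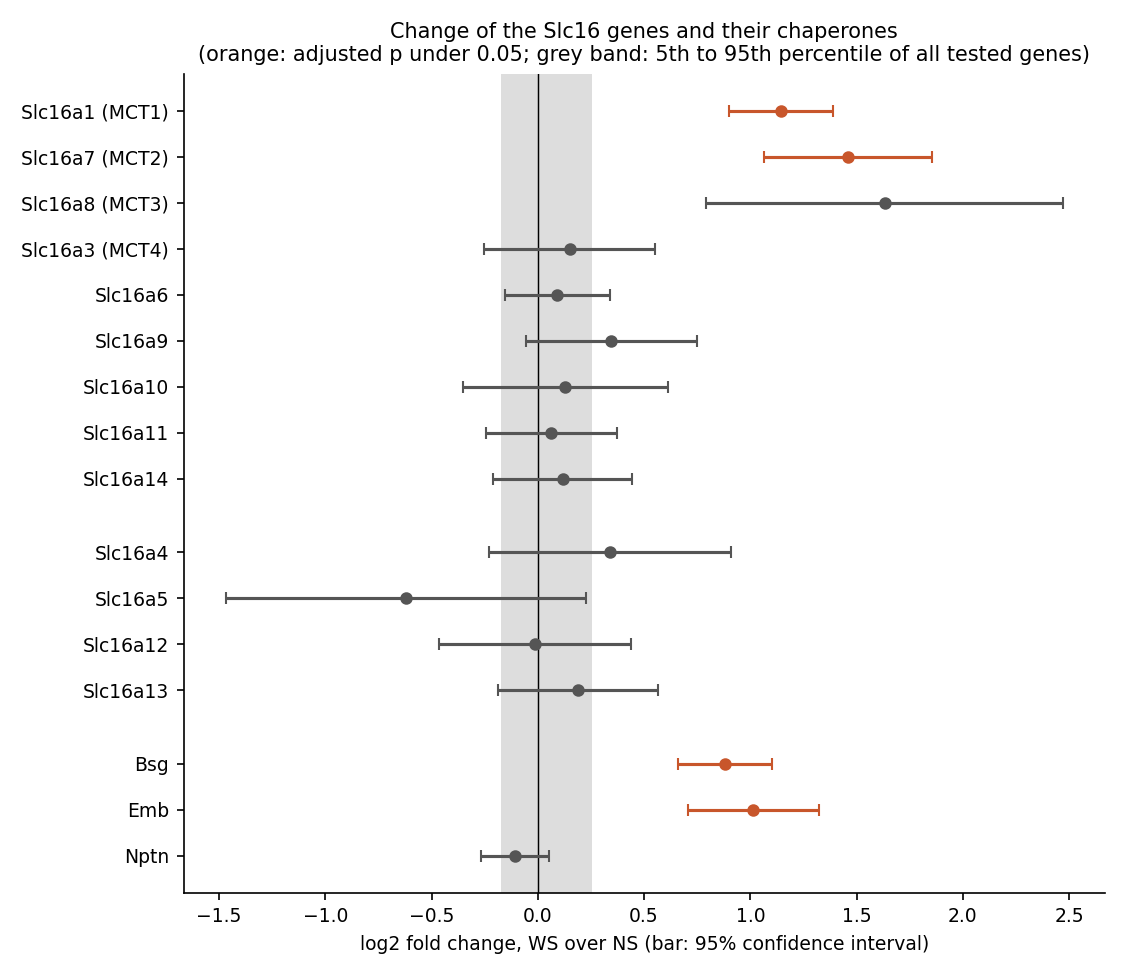
Log2 fold change (WS over NS, edgeR) with its 95% confidence interval for the 9 members, 4 other Slc16 genes of the table, and the 3 chaperones. The grey band is the 5th to 95th percentile of all tested genes (-0.17 to 0.26), and Slc16a1, Slc16a7, Bsg and Emb, in orange, have an adjusted p under 0.05.

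Slc16a4, Slc16a5, Slc16a12 and Slc16a13 were compared in the same fit, and 0 of 4 were called by edgeR or DESeq2 or had an unadjusted p under 0.05, with a median log2 fold change of 0.088. The highest value was in Slc16a4, at 0.34 (SE 0.26), and the lowest was in Slc16a5, at -0.62 (SE 0.39) with only 11.3 counts on average. The groups overlapped in all 4 genes.

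The levels of the members were compared per length, as CPM per kilobase of the union of annotated exons. In NS the order was Slc16a1 (9.88 ± 0.162), Slc16a7 (4.38 ± 0.427), Slc16a11 (3.50 ± 0.438), Slc16a6 (2.82 ± 0.0880), Slc16a14 (1.86 ± 0.144), Slc16a3 (1.20 ± 0.196), Slc16a9 (0.846 ± 0.0911), Slc16a10 (0.348 ± 0.050) and Slc16a8 (0.266 ± 0.0882, SD, n = 3 each). Slc16a7 and Slc16a11 overlapped in their NS ranges, as did Slc16a10 and Slc16a8, while the other neighbours in this order were separated. In WS the first 7 places were the same, the ranges of Slc16a11 and Slc16a6, of Slc16a3 and Slc16a9, and of Slc16a9 and Slc16a8 overlapped, and Slc16a8 (0.833 ± 0.338) moved ahead of Slc16a10 (0.381 ± 0.0633). The level of Slc16a7 in WS was 12.1 ± 3.61, and its lowest library (8.24) was above the highest Slc16a11 library (3.94). Slc16a1 reached 21.8 ± 3.50 in WS, with a lowest library of 18.0.

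The summed level of the 9 members was 25.1 ± 0.451 CPM per kilobase in NS and 46.2 ± 1.14 in WS (SD, n = 3). Slc16a1 and Slc16a7 together made up 57.6%, 55.5% and 57.3% of that sum in the NS replicates and 73.6%, 74.4% and 72.0% in the WS replicates. The SD of the sum in WS was smaller than that of either of its main parts (3.50 for Slc16a1 and 3.61 for Slc16a7). The share of Slc16a1 alone ran from 38.8% to 55.3% across the WS libraries and that of Slc16a7 from 18.3% to 33.2%, with the higher share of one in the libraries with the lower share of the other.

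**Figure D3:**
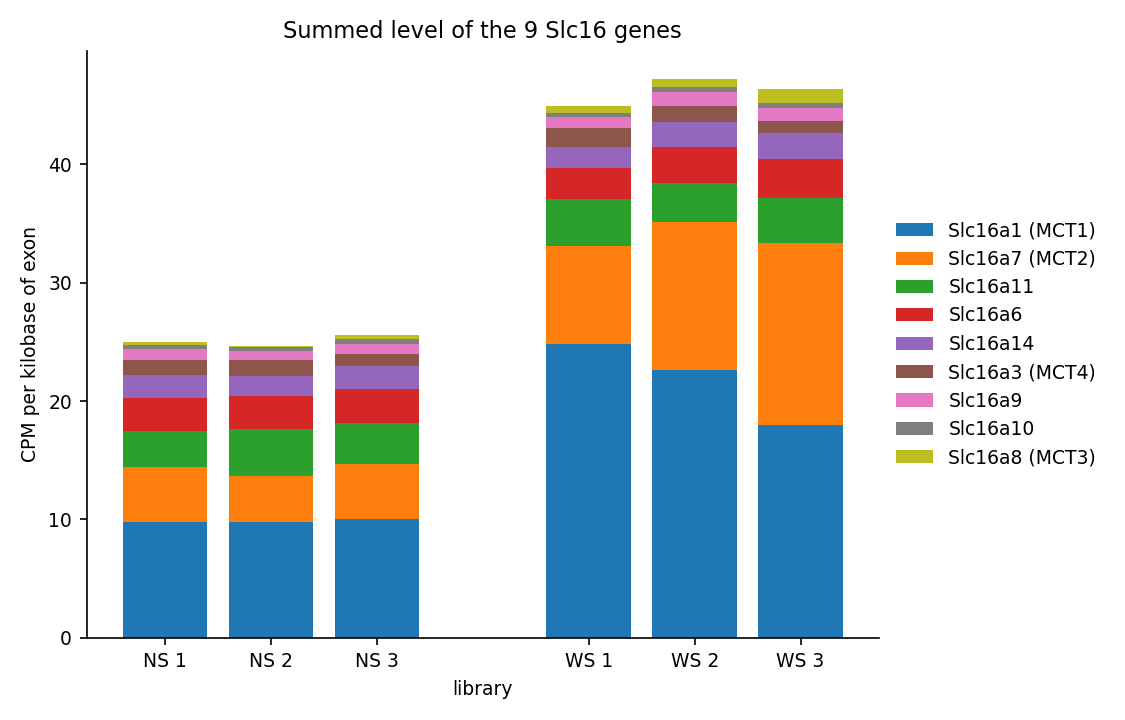
Levels of the 9 members in each library as stacked CPM per kilobase of exon, on a linear axis from 0. The sums are 24.7 to 25.6 in the NS libraries and 45.0 to 47.2 in the WS libraries, and the Slc16a1 and Slc16a7 segments account for 56.8% of the sum in NS and 73.4% in WS on average.

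The WS libraries were then compared among themselves. Slc16a1 was highest in WS replicate 1 and lowest in WS replicate 3, and Slc16a3 was also highest and lowest in these libraries. Slc16a7 and Slc16a8 had the opposite order, with the lowest value in WS replicate 1 and the highest in WS replicate 3. The ratio of Slc16a7 to Slc16a1 counts was 1.28, 1.06 and 1.22 in the NS replicates and 0.886, 1.49 and 2.29 in the WS replicates. The mean log2 ratio was 0.24 ± 0.14 in NS and 0.53 ± 0.69 in WS (SD, n = 3), a difference of 0.29 (two-sided exact permutation test, p = 0.60, where the smallest possible p is 0.10). Without WS replicate 3 the difference was -0.04 and without WS replicate 1 it was 0.64, so a change of one carrier relative to the other was not detectable with 3 libraries in each group.

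Within same-numbered libraries, WS was above NS in 3 of 3 pairs in 5 members, Slc16a1, Slc16a7, Slc16a8, Slc16a3 and Slc16a9, against 9.82% of all tested genes. The ratio of WS to NS for Slc16a1 was 2.55, 2.30 and 1.79 in pairs 1, 2 and 3. For Slc16a7 the ratio was 1.77, 3.23 and 3.35, and for Slc16a8 it was 1.96, 4.13 and 3.73. Pair 1 thus had the largest ratio of Slc16a1 and the smallest ratio of Slc16a7 and Slc16a8. The ratios of Slc16a3 (1.23, 1.02 and 1.08) and Slc16a9 (1.06, 1.55 and 1.26) were smaller. WS was higher in 2 of 3 pairs for Slc16a6, Slc16a11 and Slc16a14, and in 1 of 3 for Slc16a10.

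**Figure D4:**
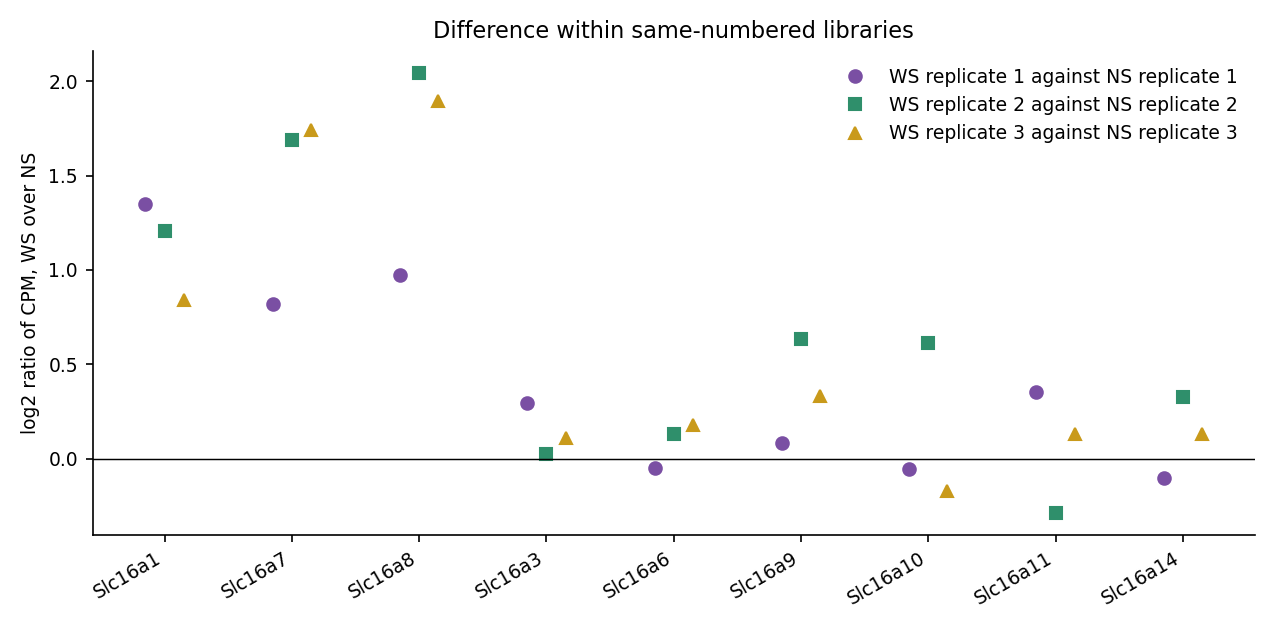
Log2 ratio of WS over NS CPM for each member within same-numbered libraries. The points of Slc16a1, Slc16a7 and Slc16a8 lie between 0.82 and 2.05, and those of the other 6 members lie between -0.29 and 0.63, on both sides of 0 in Slc16a6, Slc16a10, Slc16a11 and Slc16a14.

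The chaperones were set beside their carriers. Bsg, the partner of MCT1, had 464.7, 450.2 and 494.9 CPM in NS and 838.0, 997.7 and 759.2 CPM in WS, with no overlap, and its log2 fold change of 0.88 (SE 0.10, adjusted p = 0.00880, edgeR) was below the limit of 1 for a call. Emb, the preferred partner of MCT2, had 29.6, 26.2 and 30.9 CPM in NS and 70.4, 46.1 and 58.5 CPM in WS, and was called higher (log2 fold change 1.01, SE 0.14, adjusted p = 0.0355, edgeR). The adjusted p of Emb was 0.187, 0.507 and 0.205 (edgeR) without NS replicates 1, 2 and 3, at log2 fold changes of 1.03, 0.95 and 1.07. Without WS replicate 1 its log2 fold change was 0.86, so the call was lost in each of these fits. With same-numbered libraries blocked, the adjusted p of Emb was 2.2e-06 (edgeR) but its log2 fold change was 0.999, just under the limit, so it was not called there either. Bsg likewise had adjusted p-values of 0.0703, 0.211 and 0.0824 without NS replicates 1, 2 and 3 (edgeR), at log2 fold changes of 0.87, 0.85 and 0.92. Nptn was lower in all WS than in all NS libraries but was not called (log2 fold change -0.11, SE 0.07, adjusted p = 0.9998, edgeR). The log2 ratio of Slc16a1 to Bsg counts was higher in WS by 0.26 (two-sided exact permutation test, p = 0.10, the smallest possible), with all 3 WS ratios above all NS ratios, and by 0.14 without WS replicate 1. The log2 ratio of Slc16a7 to Bsg was higher by 0.55 (p = 0.20 by the same exact test), a value carried in large part by WS replicate 3, without which it was 0.26.

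Across the 6 libraries, the gene most like Slc16a1 among 10875 genes that averaged 100 counts or more was Bsg (Pearson's r of 0.971 on log2 CPM), followed by P3h3 (0.969), Cyp2d22 (0.968), Reps1 (0.968) and Mdp1 (0.960). The changes of the last 4 were small, with log2 fold changes of 0.07 to 0.24 and adjusted p-values of 0.9998 (edgeR). The genes most like Slc16a7 were Vegfa (0.985), which encodes the main vascular growth factor, Pecam1 (0.974), an endothelial adhesion molecule, the immediate early gene Fos (0.959), Ezr (0.952) and Ltbp3 (0.95). Vegfa had 49.99, 52.8 and 49.9 CPM in NS and 99.9, 146.8 and 157.6 CPM in WS, the same order among WS libraries as Slc16a7. It was itself called higher (log2 fold change 1.40, adjusted p = 0.00356, edgeR). The correlations are descriptions over 6 libraries that share the split into NS and WS, and carry no p.

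Markers of the cell types in which these carriers are known were summed in each library, and their part in the results was not tested. Of 14 endothelial markers, 0 were called by edgeR or DESeq2 and 1, Pecam1, had an unadjusted p under 0.05, while 14 were above 0 with a median log2 fold change of 0.09. Their summed level was 430.8 to 475.3 CPM in NS and 457.6 to 535.0 CPM in WS. The highest was Pecam1 (0.87, SE 0.18, adjusted p = 0.813, edgeR, and 0.84 with an adjusted p of 0.000948 when same-numbered libraries were blocked), and the lowest was Tie1 (0.0024, SE 0.11). Of 10 astrocyte markers, 10 were above 0 with a median of 0.13 and a summed level of 4587 to 5100 CPM in NS and 4810 to 5935 CPM in WS. The highest was Gja1 (0.59, SE 0.51), which had 347 counts in NS replicate 3 against 2967 and 3091 in NS replicates 1 and 2. The lowest was Slc1a3 (0.04, SE 0.09). The 10 neuron markers had a median of -0.01, with 4 above 0. Oligodendrocyte markers had a median of 0.19, with 10 of 10 above 0, 0 called and 1, Olig1 (0.22, unadjusted p = 0.0284, edgeR's quasi-likelihood F test), at an unadjusted p under 0.05, and a summed level that ran from 8299 to 11900 CPM within NS and from 9850 to 13154 CPM in WS. For Slc16a8, the listed choroid plexus markers (9 measured) had a median of -0.09 and a summed level of 495.0 to 887.5 CPM in NS and 304.3 to 1012 CPM in WS, with the lowest sum in WS replicate 1 and the highest in WS replicate 2. Most of that sum was Enpp2, chosen after its values were seen, which averaged 621.6 CPM in NS and 582.9 CPM in WS. The retinal pigment epithelium markers (6 measured) had a median of 0.047 and a summed level of 30.4 to 33.7 CPM in NS and 32.2 to 34.9 CPM in WS, from Rpe65 at -0.12 (SE 0.31) to Best1 at 0.46 (SE 0.47). Slc16a8 was lowest among the WS libraries in replicate 1, where the choroid plexus sum was also lowest, but highest in replicate 3, where that sum was 647.9 CPM. Within same-numbered libraries, the endothelial, oligodendrocyte and retinal pigment epithelium sums were higher in WS in every pair. The astrocyte, neuron and choroid plexus sums were not.

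**Figure D5:**
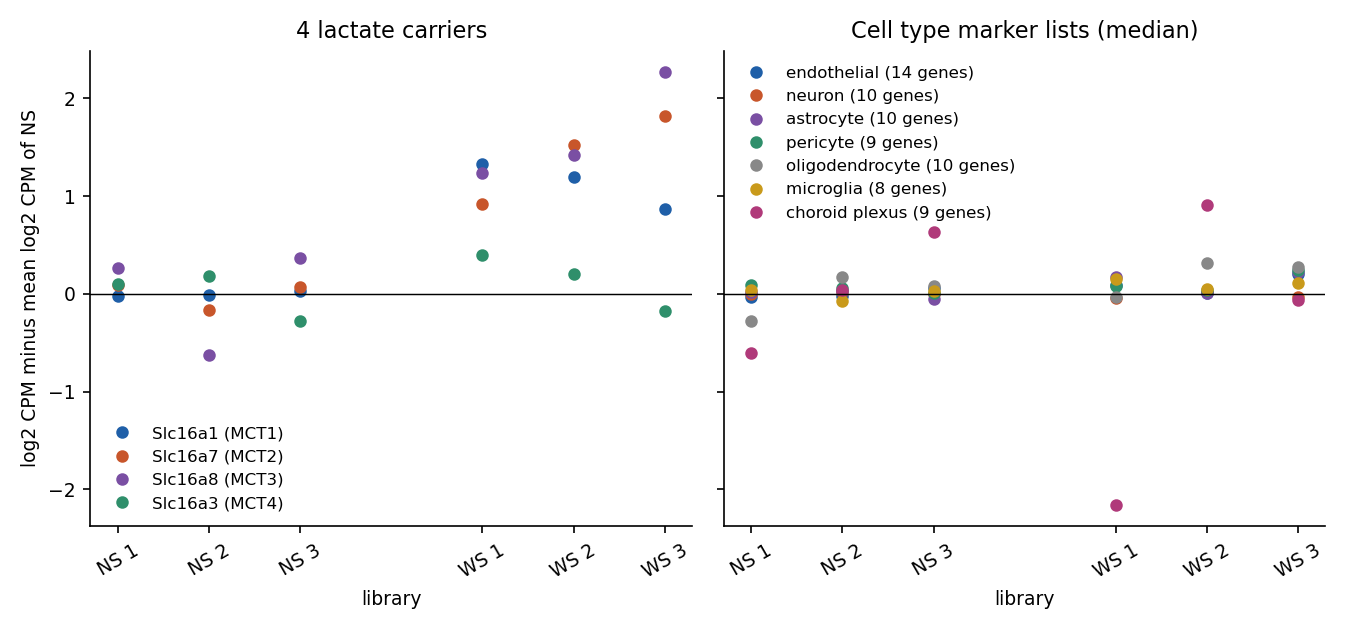
Log2 CPM of the 4 lactate carriers in each library minus their mean log2 CPM in NS (left), and the median of the same quantity over the markers of 7 cell types or tissues (right, same axis). The WS points of Slc16a1, Slc16a7 and Slc16a8 lie between 0.87 and 2.26, the WS medians of the choroid plexus list are -2.15, 0.91 and -0.07 in replicates 1, 2 and 3, and those of the other 6 lists lie between -0.05 and 0.32.

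Genes that handle the carried substrates were compared as lists. Of 14 genes of lactate, pyruvate and ketone metabolism, 0 were called in either direction by edgeR or DESeq2 and 0 had an unadjusted p under 0.05, with 4 above 0, 10 below 0 and a median log2 fold change of -0.031. The highest was Pdk4 (0.08, SE 0.17), a kinase that inhibits pyruvate dehydrogenase, and the lowest was Pdp1 (-0.10, SE 0.08), which reactivates pyruvate dehydrogenase. Of the lactate receptor Hcar1 and the mitochondrial pyruvate carrier subunits Mpc1 and Mpc2, which makes 3 genes, 0 were called by edgeR or DESeq2 and 0 had an unadjusted p under 0.05. The highest was Hcar1 (0.28, SE 0.33) and the lowest was Mpc2 (-0.10, SE 0.10). No sodium-coupled monocarboxylate carrier was tested, since Slc5a12 did not pass the filter on low counts and Slc5a8 was not analysed here.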

How the data were processed

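Bulk RNA-seq of S1 cortex was deposited for 3 NS and 3 WS libraries, grouped by their sample titles. According to the methods and labels, the authors sequenced total RNA on a DNBseq instrument and, after discarding reads of rRNA or poor quality, ran HISAT2, and the submitters' processing notes name mm10. The counting tool and its use of strand are not given in the sources used here. The table the authors deposited holds for each gene an estimated count, the mean over the 6 libraries, and the SD of those counts. A z-score was deposited by the authors for each library, made by centring each count on that mean and dividing by that SD. The authors' deposited columns of log2 fold change, p-value, FDR score and rank, and a second table of comparisons, were not used. The z-score column of WS replicate 3 has an added letter in its name and was assigned by the authors' own WS mean, which includes it.

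Counts were computed back as mean plus z-score times SD and rounded to whole numbers. Of the member values, 47 of 54 were whole within 0.1, and the largest uncertainty of a member count was 0.454. Depth was 15660395 to 17276168 counts per library over the listed genes, and counting error falls as counts rise. No 2 libraries agreed within sampling noise. The planned test for counts was kept although z-scores had been deposited: edgeR 4.0.16 (filterByExpr, TMM, quasi-likelihood F test, Benjamini-Hochberg adjustment over 13747 genes) in R 4.3.3. Single values were compared by exact permutation tests (SciPy 1.17.1). The steps were tested on simulated data. Alternatives were RLE factors, library totals alone, no filter, DESeq2 1.42.0, the replicate number as a block, other thresholds, each library left out, and transcript length in place of exon length.

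The replicate numbers come from the titles. The study describes NS as the unstimulated side in its whisker model and male mice as the replicates of the sequencing, but the labels do not tie libraries to animals. Same-numbered libraries deviated together from their group means with Pearson's r of 0.343, 0.232 and 0.124 over 13688 genes averaging 10 or more counts, all above the limit of 0.1. Over 10876 genes averaging 100 or more, r was 0.376, 0.346 and 0.068, the last under that limit. Each of the 3 NS and 3 WS libraries correlated best with its own number, but both counts come from the same correlations and are not independent. The numbers were therefore taken to pair the samples. The fit without the block stayed the main one, as planned after the methods, and the blocked value is given where it changes a call. Positions and exon lengths came from GENCODE M21 and promoters from RefSeq. The members and lists were chosen with earlier results of these data known. Named genes are the members, the 3 chaperones and the 5 genes most like each member with an adjusted p under 0.05. The highest, lowest and called gene are named for part of the lists. Genes sharing exon bases with a member, and Vegfa's values, were named after their values were seen. Protein sequences were not analysed here, and 3 genes are not reported here and were left out of the lists.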

Additional observations from a re-analysis of the deposited data

How the results depend on the processing

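Under RLE factors, library totals alone, no filter, DESeq2 and an adjusted p at any fold change, the same 2 members, Slc16a1 and Slc16a7, were higher in WS. The replicate block gave 3 higher members, since Slc16a8 was added (log2 fold change 1.62, adjusted p = 0.0442, edgeR), and the log2 fold changes of Slc16a1 and Slc16a7 were 1.13 and 1.42 with adjusted p-values of 2.6e-07 and 1.9e-07. The block changed no other call among the members. At an unadjusted p under 0.05 the count was also 3. With 1 library left out in turn and no block, the count of higher members ran from 0 (without NS replicate 2 or NS replicate 3) through 1 (without NS replicate 1) to 2. Fewer samples enter these fits. The count of lower members was 0 in every setting tried. The log2 fold change of Slc16a1 ran from 1.04 to 1.26 and that of Slc16a7 from 1.25 to 1.67 over all alternatives. The direction of Slc16a10 reversed without WS replicate 2 (-0.022, against up to 0.23 without NS replicate 3) and that of Slc16a11 without NS replicate 1 (-0.019, against up to 0.16 without NS replicate 2), and the cause was not tested. With the longest transcript in place of the exon union, Slc16a1 and Slc16a7 made up 52.9% of the summed level in NS instead of 56.8%, because other members have shorter transcripts than exon unions. Members with few counts, Slc16a8 above all, have a larger counting error, 22.3% of the mean against 2.52% for Slc16a7.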

Other observations

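Other gene lists bearing on the carriers and their substrates were compared in the same fit. Of 10 genes of thyroid hormone and aromatic amino acid transport and response, which include carriers, deiodinases, receptors and responsive regulators, 0 were called by edgeR or DESeq2 and 0 had an unadjusted p under 0.05. Their median log2 fold change was 0.070, from Thrb, a thyroid hormone receptor, at -0.19 (SE 0.10) to Slc7a5, a large neutral amino acid carrier, at 0.11 (SE 0.09). Of 6 carnitine and creatine carriers and enzymes, 0 were called and 6 were above 0, with a median of 0.078 and the highest value in Slc22a4 (0.22, SE 0.23) and the lowest in Crat (0.031, SE 0.09). Of 8 acid-base partners of the proton-linked carriers, 0 were called, with a median of 0.045, from the bicarbonate carrier Slc4a10 at -0.17 (SE 0.10) to Slc4a4 at 0.17 (SE 0.13).

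Further marker lists had 0 called genes by edgeR and DESeq2. The medians were 0.10 for 8 genes of cortical layers 4 to 5 (summed level 520.4 to 564.3 CPM in NS and 546.2 to 561.2 CPM in WS), 0.099 for 8 microglia markers (452.7 to 474.0 CPM in NS and 479.4 to 491.5 CPM in WS), 0.105 for 9 pericyte markers (283.1 to 286.4 CPM in NS and 289.4 to 336.1 CPM in WS) and 0.025 for 5 red blood cell markers (421.7 to 766.5 CPM in NS and 501.0 to 634.4 CPM in WS). The sums of the microglia and pericyte lists were higher in all WS than in all NS libraries, those of the layer and red blood cell lists overlapped, and their part in the results was not tested.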
